A study of Mus musculus with 8 samples.

Results

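Ly6C-inter cells are the CD11b+MHCII-CD64+ conjunctival cells sorted on intermediate Ly6C, and here the sample from mice exposed to desiccating stress (DS) was compared with the sample from non-stressed (NS) mice. Both came from female C57BL/6J mice, labeled as 10 weeks old. The NS mice were kept in humid air without a draft. The DS5 mice received scopolamine in the drinking water, which inhibits tear secretion, and were exposed to a fan draft in dry air for 5 days. These are 2 of the 8 samples of the series, which also holds MHCII+ cells, Ly6C-high monocytes and Ly6C-low cells from each condition. A sample was a pool from 20 mice and there was 1 pool per condition, so no test between conditions was possible and no p-value is given.

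Expression was measured by NanoString nCounter with a codeset for mouse myeloid cells (Myeloid Innate Immunity V2), in which fluorescent barcodes bound to each transcript are counted without amplification. The table held 754 genes. A gene was kept when its raw count was above a limit, the mean + 2 SD over 8 negative control probes, in at least 1 of the 2 samples. That limit was 11.2 counts in NS and 23.0 counts in DS5, and 136 genes were kept. Of these, 26 were above the limit in DS5 only and are called gained (3.45% of all genes measured), 38 passed in NS only and are called lost (5.04%), and 72 passed in both and are called shared (9.55%). The rule used these counts, so the class of a gene is a description and not a result.

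Monocytes that enter a tissue lower Ly6C as they mature, and cells with intermediate Ly6C are usually placed between blood-derived monocytes and tissue macrophages. Tissue macrophages are known for complement C1q, scavenger receptors, lysosomal enzymes and chemokines that recruit more monocytes through CCR2. Interferons switch on antiviral and antigen-processing genes in such cells, and the checkpoint ligand PD-L1 is among their known targets.

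Summed over all genes, Ly6C-inter cells had 5948 counts in NS and 14201 in DS5, a ratio of 2.39, while the positive control probes, which are spiked in equal amounts, differed by a ratio of 1.24. A few genes held much of the rise. Emp1, S100a11, S100a10 and Ly6c1 together made up 41.6% of the 8253 counts by which the DS5 total was higher, and the 10 genes with the largest rise made up 55.8%. These 4 genes were 2.93% of the NS total and 25.4% of the DS5 total. Scaling both samples to equal totals, the main setting, therefore lowers every other gene of DS5, and unscaled counts are given beside the scaled ratio wherever the choice matters. In bulk samples, fewer cells of a type and less RNA per cell cannot be told apart.

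With equal totals, 55 of the 754 genes had a log2 ratio of DS5 over NS of at least 1.5 (7.29%) and 105 had one of -1.5 or less (13.9%). The counting interval of the ratio was above 0 for 4.24% and below 0 for 11.8% of the genes. The higher genes were 34.4% of those past the threshold. Raw counts without scaling put 267 genes higher and 13 lower, a share of 95.4%. Scaling to 19 reference genes, of which only Oaz1, Ppia and Rpl19 were above the limit in both samples, gave 76 higher and 71 lower genes, a share of 51.7%. The share was 89.9% with positive controls, 57.6% with equal totals without the 10 highest genes of either sample, 66.3% with TMM and 87.4% with DESeq2 size factors. Over all genes the median log2 ratio came to -0.26 with equal totals, 0.03 with reference genes, 0.69 with positive controls and 1 without scaling. Among the kept genes, 22 were past the threshold as higher and 30 as lower with equal totals. Each of the 6 other scalings moved every gene up against equal totals, by 0.29 to 1.26 on the log2 scale. The 22 higher genes therefore had to stay past the threshold, most of the lower genes had to lose it, and no scaling could turn the sign of any of the 52, so these outcomes are no sign of stability. Klf10 was the one lower gene still past the threshold without scaling.

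**Figure D1:**
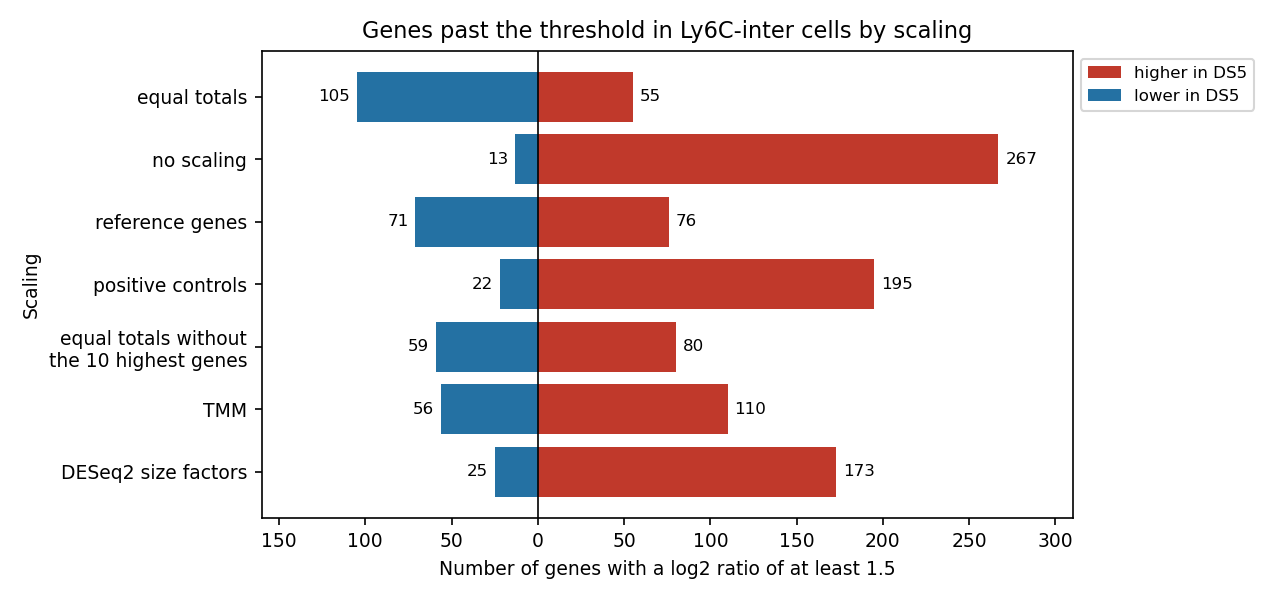
Number of genes with a log2 ratio of DS5 over NS of at least 1.5 in Ly6C-inter cells, higher to the right and lower to the left, under each of 7 scalings. Equal totals gave 55 higher and 105 lower genes, and no scaling gave 267 higher and 13 lower.

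Among the gained genes, Ly6c1 had the highest DS5 count. Ly6c1, which encodes a GPI-anchored Ly6C protein, had 8 counts in NS and 583 in DS5, a log2 ratio of 4.93 (95% counting interval 3.94 to 6.15). The other 6 samples had 2 to 16 counts of Ly6c1, so the DS5 Ly6C-inter sample stood far above all of them, also above both Ly6C-high monocyte samples. Ly6c1 had 8 (NS) and 16 (DS5) counts in monocytes and 7 and 14 in Ly6C-low cells. The NS counts were below the negative control limits of these samples, 15.1 and 15.9, and the DS5 counts were just above theirs. Counts this low, from samples with unequal totals, cannot show whether Ly6c1 separates the Ly6C-high and Ly6C-low gates. In DS5 its count did not follow the Ly6C level used in the sort, with 583 in Ly6C-inter cells against 16 in monocytes. Which Ly6C gene that level reflects was not tested. Cd274, which encodes the checkpoint ligand PD-L1, had 3 counts in NS and 154 in DS5 (4.43, 2.85 to 6.72), against 1 to 9 in the other samples. Ceacam1, an adhesion molecule, had 3 and 115 counts (4.01, 2.42 to 6.30). Pdzk1ip1, a small membrane protein, had 1 and 95 counts, with the highest log2 ratio of the kept genes at 5.31 and a wide interval of 2.80 to 10.63. An NS count of 1 can also stand for a smaller value, because the table holds no 0.

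The tetraspanin Tspan8 had 2 and 64 counts (3.74, 1.83 to 6.82), and F11r, the junctional adhesion molecule JAM-A of tight junctions, had 6 and 92 (2.68, 1.51 to 4.17). Pglyrp1, a secreted peptidoglycan recognition protein with antibacterial activity, had 5 and 196 counts (4.04, 2.79 to 5.68). Il1r2, the decoy receptor that binds IL-1 without signaling, had 5 and 51 (2.09, 0.78 to 3.78). Together with Cd274, Ceacam1, Pdzk1ip1 and Ifit1bl1 these were among 9 gained genes above the negative control limit in none of the 6 other samples. Their counts there were between 1 and 10. The same held for 1 of the 72 shared and 0 of the 38 lost genes. It also held for 443 of the 618 genes below the limit in both Ly6C-inter samples. Of the 26 gained genes, 14 were above the limit in both MHCII+ samples, against 30 of the 38 lost and 70 of the 72 shared genes. Of the 618 genes below the limit in both Ly6C-inter samples, 99 were. Alcam, an adhesion molecule, had 3 and 41 counts in Ly6C-inter cells, and MHCII+ cells had 30 (NS) and 34 (DS5). Znrf2, a ubiquitin ligase, had 3 and 40 counts against 49 and 40, and Psme2, a subunit of the proteasome activator PA28, had 8 and 94 against 64 and 32. The DS5 Ly6C-inter count of these 3 genes was at least that of DS5 MHCII+ cells, although the total of the MHCII+ sample was larger.

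Genes already above the limit in NS were led by Emp1, which encodes a tetraspan epithelial membrane protein. Emp1 had 51 counts in NS and 1436 in DS5 (3.56, 3.16 to 3.99), and 6 to 97 in the other samples. It was the gene with the highest count in DS5 Ly6C-inter cells, at 10.1% of the total (exact binomial 95% interval 9.62 to 10.6%) against 0.857% in NS (0.639 to 1.13%). The calcium-binding protein S100a11 had 62 and 891 counts (2.59, 2.22 to 2.99). S100a10, the partner of annexin A2, had 53 and 696 (2.46, 2.06 to 2.89). The other S100 genes of the list were closer between the samples. S100a9 had 16 and 55 counts (0.53, -0.30 to 1.43), S100a4 had 14 and 18 (-0.89, -1.98 to 0.23), and S100a8 had 6 and 7, below the limit in both. Of 15 measured monocyte and S100 genes of a list of 25, 6 were kept, and the median of the 15 was -0.41. Itgam, the gene of CD11b on which all cells were sorted, had 21 and 161 counts (1.68, 1.02 to 2.41).

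**Figure D2:**
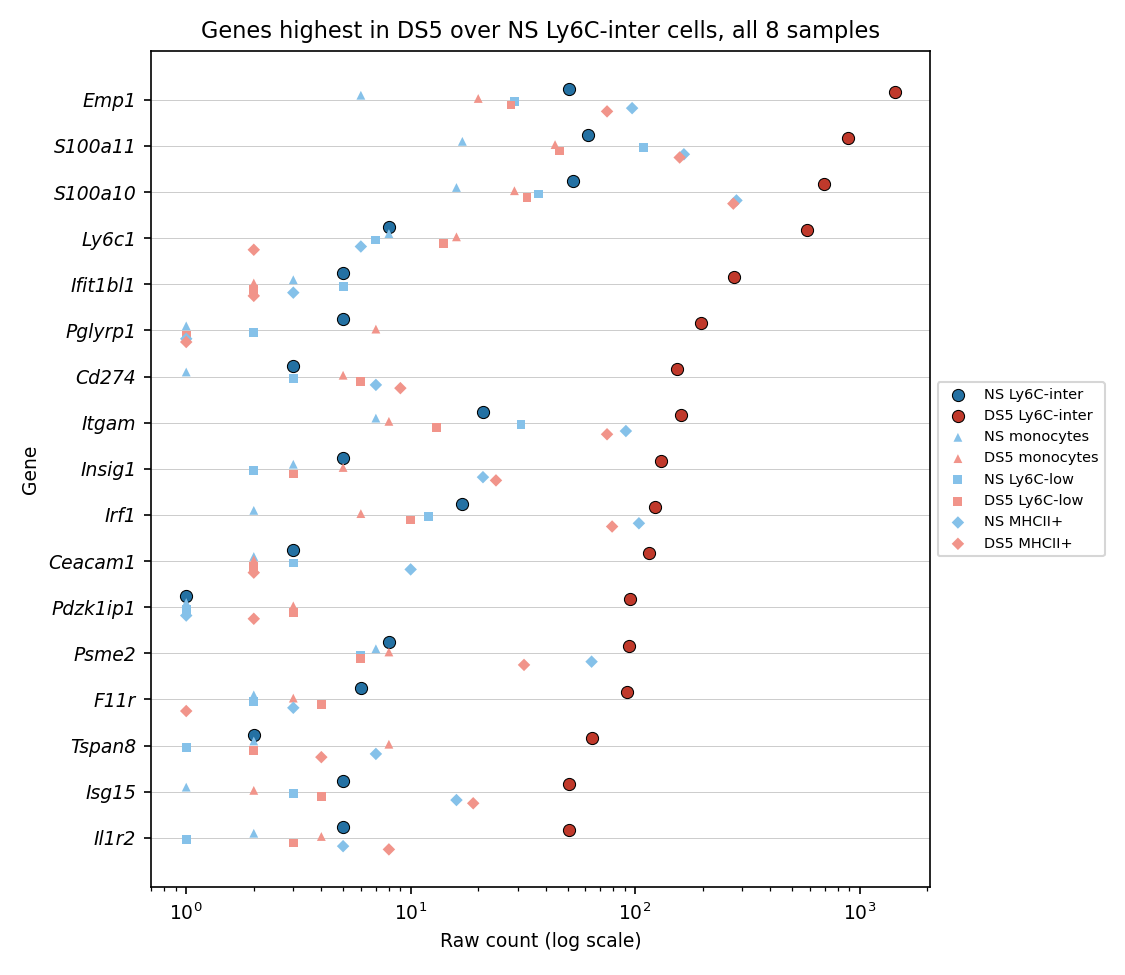
Raw counts (log axis) of 17 genes in all 8 samples, with Ly6C-inter cells as large circles (blue NS, red DS5) and the other populations as small symbols. The DS5 Ly6C-inter sample has the highest count of each gene, such as 583 for Ly6c1 against 2 to 16 in the 6 samples of the other populations.

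The same 22 genes were set against their values in the other populations. Between NS and DS5 monocytes 3 of the 22 had a log2 ratio of at least 1.5 (6.37% of all genes did), with a median of 0.47 against -0.16 for all genes. In Ly6C-low cells 7 of the 22 did (24.7% of all genes), with a median of 0.49 against 0.52. In MHCII+ cells none of the 22 did (1.19% of all genes), with a median of 0.01 against 0. The counting interval was above 0 for 1.06% and below 0 for 1.33% of all genes in monocytes, for 3.05% and 3.05% in Ly6C-low cells and for 2.39% and 2.39% in MHCII+ cells. Most of these counts were low, as 5 of the 22 genes in monocytes, 5 in Ly6C-low cells and 12 in MHCII+ cells were above the limit in NS or DS5. The difference between populations was not tested.

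Among interferon response genes, Ifit1bl1, Cd274, Isg15 and Irf1 had counting intervals above 0. Of 22 measured genes of a list of 50, 6 were kept, namely 4 gained and 2 shared. All 6 had more raw counts in DS5, which the 4 gained genes had to by the rule, and so did 531 of all 754 genes. The median log2 ratio of the 22 genes was 0.33, against -0.26 for all genes. Both medians were -1.26 once the mean of the negative control probes was subtracted from each sample, so this distance rests on counts near background. Ifit1bl1, a member of the interferon-induced IFIT family, had 5 and 277 counts (4.54, 3.30 to 6.17) and 2 to 5 in the other samples. Isg15, a ubiquitin-like protein induced by interferon, had 5 and 51 (2.09, 0.78 to 3.78), and the transcription factor Irf1 had 17 and 123 (1.60, 0.86 to 2.42). Cd274 belongs to this list as well. Psmb8, an immunoproteasome subunit, had 11 and 42 counts (0.68, -0.31 to 1.78), and Ifngr1, a chain of the interferon gamma receptor, had 20 and 41 (-0.22, -1.02 to 0.63), so the scaled levels of these genes did not differ beyond counting error. The other 16 genes were below the limit in both samples, among them Irf7 with 1 and 14 counts and Mx1 with 1 and 11.

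The bases just before the RefSeq start sites of the kept interferon genes with the highest log2 ratios are shown because their counts were higher together in DS5. Each run is 150 bases on GRCm38.p6, read 5′ to 3′ on the gene's strand and ending at the base before the start. The first of several RefSeq starts is shown for Ifit1bl1 (chr19:34601969-34602118, - strand) and Irf1 (chr11:53769864-53770013, + strand), and Isg15 (chr4:156200819-156200968, - strand) and Cd274 (chr19:29367288-29367437, + strand) have 1 each. Capitals mark matches on either strand to GAAA, any 2 bases and GAAA again, the core of the interferon-stimulated response element, and, in Irf1, to TTCNNNGAA, the gamma-activated sequence.
Ifit1bl1: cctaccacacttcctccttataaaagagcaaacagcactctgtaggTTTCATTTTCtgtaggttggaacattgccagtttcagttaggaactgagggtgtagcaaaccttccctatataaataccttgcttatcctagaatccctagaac
Isg15: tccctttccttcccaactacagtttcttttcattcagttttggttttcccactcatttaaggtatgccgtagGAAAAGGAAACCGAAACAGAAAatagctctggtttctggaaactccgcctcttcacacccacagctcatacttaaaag
Irf1: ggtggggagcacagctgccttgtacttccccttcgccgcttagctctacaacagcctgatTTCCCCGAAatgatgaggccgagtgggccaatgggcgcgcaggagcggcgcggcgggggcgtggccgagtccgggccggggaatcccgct
Cd274: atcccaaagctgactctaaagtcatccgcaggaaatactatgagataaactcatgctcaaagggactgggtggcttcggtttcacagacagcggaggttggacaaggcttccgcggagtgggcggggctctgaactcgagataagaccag
The Isg15 capitals are 3 overlapping matches. No match to either motif lay in the 150 bases of Cd274. Over the whole RefSeq promoter windows, which extend further on both sides, the first motif was found in 3.44% of 32851 promoters and TTCNNNGAA in 8.30%. Of the 26 gained genes 22 had a promoter in the table, with 30 promoters in all, of which 10% held the first motif (those of Ifit1bl1 and Isg15) and 6.67% held TTCNNNGAA (Il1r2 and Psmb8). Among 29 promoters of the lost genes the shares were 13.8% and 20.7%, and among 66 of the shared genes 1.52% and 3.03%. A match is a description of the letters and not a binding site.

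Among checkpoint and costimulation genes, Cd274 was the one kept gene with an interval above 0. Of 24 measured genes of 27, 3 were kept, and the median log2 ratio of the 24 was -0.67. Beside Cd274, the costimulatory ligand Cd86 had 16 and 9 counts (-2.09, -3.45 to -0.82) and Cd47, the ligand of SIRP alpha, had 15 and 26 (-0.46, -1.43 to 0.56). Without scaling the interval of Cd86, -2.19 to 0.43, included 0.

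Among macrophage genes the unscaled interval was above 0 for 3, Itgam (21 and 161 counts), Arg1 (9 and 26) and the cathepsin Ctsl (12 and 25), and included 0 for the other 26. Of 29 measured genes of a list of 47, 19 were kept, as 16 shared, 2 lost and 1 gained, and 12 of the 19 had more and 7 fewer raw counts in DS5. The complement genes C1qa, C1qb and C1qc had 65, 117 and 96 counts in NS and 68, 100 and 103 in DS5. The scavenger receptor Cd163 had 35 and 47, the mannose receptor Mrc1 had 43 and 47, and the CSF-1 receptor Csf1r had 34 and 33. These counts agree within counting error. As shares of a larger total they were lower, with log2 ratios of -1.19 (-1.70 to -0.68) for C1qa, -1.48 (-1.88 to -1.08) for C1qb and -1.15 (-1.57 to -0.74) for C1qc.

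The list as a whole had 896 counts in NS and 1110 in DS5, 15.1% and 7.82% of the totals. The log2 ratio of the sums was -0.95 with equal totals and 0.31 without scaling, and the median of the 29 genes was -0.93 and 0.32, against -0.26 and 1 for all genes. The direction of this list therefore changed with the scaling, and its median was 0.01 with positive controls, -0.65 with reference genes, -0.55 without the 10 highest genes, -0.47 with TMM and -0.16 with DESeq2 size factors. The distance to the median of all genes is the same under each of them by construction. With the mean of the negative control probes subtracted, the median was -1.26 both for the list and for all genes. Retnla, a secreted protein of alternatively activated macrophages, had 124 and 114 counts (-1.38, -1.76 to -1), while Arg1, the arginase of the same program, had 9 and 26 (0.27, -0.86 to 1.55) and entered the gained genes. Adgre1, the gene of F4/80, had 37 and 26 (-1.76, -2.55 to -1), and Cd14 and Sirpa had 35 and 27 and 20 and 15. Timd4, a phosphatidylserine receptor of resident macrophages, had 17 and 16.

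Chemokine genes included the members that were lower in raw counts as well. Of 32 chemokine genes measured, 11 were kept, as 6 shared, 4 lost and 1 gained. Of these 11, 7 had fewer raw counts in DS5, as did 117 of all 754 genes, most of which were below the limit. Among all kept genes, 25 of the 38 lost, 15 of the 72 shared and 0 of the 26 gained genes had fewer. The list had 614 counts in NS and 590 in DS5, 10.3% and 4.15% of the totals, with a log2 ratio of the sums of -1.31 (-1.48 to -1.15) and of -0.06 (-0.22 to 0.11) without scaling. The median of the 32 genes was -0.83, against -0.26 for all genes, and 0.42 without scaling, against 1. With the mean of the negative control probes subtracted, the median was -1.26 both for the chemokines and for all genes. Ccl7, a ligand of CCR2, had 56 and 22 counts (-2.60, -3.39 to -1.87), and its interval stayed below 0 without scaling (-1.35, -2.13 to -0.61). The other CCR2 ligands Ccl2 and Ccl12 had 182 and 152 counts (-1.52, -1.84 to -1.20) and 39 and 30 (-1.63, -2.37 to -0.91). For both the unscaled intervals, -0.58 to 0.06 and -1.12 to 0.35, included 0.

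Ccl8 had 34 and 24 counts (-1.76, -2.58 to -0.96), and Ccl24, the eosinophil attractant that binds CCR3, had 28 and 20 (-1.74, -2.65 to -0.86). Their unscaled intervals, -1.32 to 0.29 and -1.39 to 0.39, included 0. Ccl9 had 90 and 80 counts, Ccl6 had 21 in each sample, Ccl3 had 15 and 13, and the neutrophil attractant Cxcl2 had 70 and 74, all within counting error before scaling. Pf4 (21 and 41 counts) and Cxcl1 (8 and 23) had the highest log2 ratios among the 11 kept chemokines, with log2 ratios of -0.29 (-1.08 to 0.54) and 0.27 (-0.94 to 1.64). The remaining 21 chemokines, among them Ccl5, Cxcl9 and Cxcl10, were below the limit in both samples. Of 18 chemokine receptors 2 were kept, Ccr1 (12 and 13 counts) and Cxcr4 (13 and 17), and both counted as lost although their DS5 counts were higher. Ccr2 had 1 and 7 counts, below the limit.

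Lipid genes split between Insig1 and the rest. Insig1, which holds the sterol sensor of the SREBP pathway in the endoplasmic reticulum, had 5 and 130 counts (3.44, 2.19 to 5.09). In the other samples it had 2 to 24 counts, the highest in MHCII+ cells. Apoe, the lipoprotein that carries cholesterol out of macrophages, had 141 and 187 counts, and its log2 ratio was -0.85 (-1.17 to -0.52) with equal totals and 0.41 (0.08 to 0.73) without scaling, so its direction was set by the scaling. The fatty acid and oxidized lipoprotein receptor Cd36 had 36 and 38 counts, and Alox5ap, needed for leukotriene synthesis, had 29 and 27. Lipa, the lysosomal acid lipase, had 18 and 11 counts (-1.97, -3.19 to -0.81), and Olr1, another receptor of oxidized lipoprotein, had 13 and 9 (-1.79, -3.19 to -0.45). The unscaled intervals of Lipa (-1.94 to 0.45) and Olr1 (-1.94 to 0.81) included 0. Of 19 measured lipid genes of a list of 54, 7 were kept, as 3 shared, 3 lost and 1 gained. The median of the 19 was -0.56, and 0.70 without scaling. Fasn, the fatty acid synthase, was below the limit with 4 and 3 counts.

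**Figure D3:**
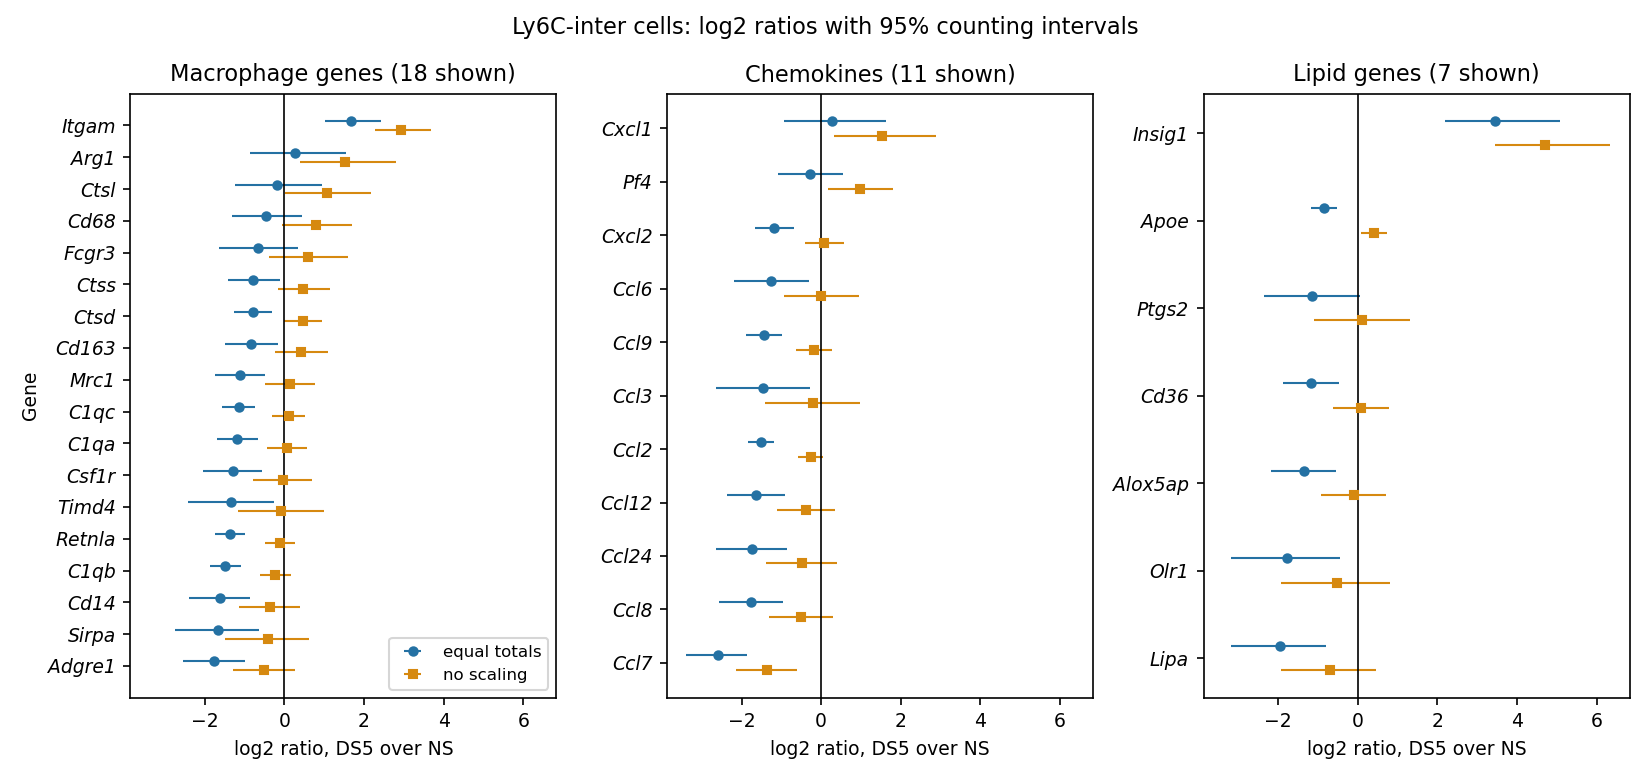
Log2 ratios of DS5 over NS in Ly6C-inter cells with 95% counting intervals for kept macrophage genes, chemokines and lipid genes, after scaling to equal totals (blue) and without scaling (orange). Most blue points lie below 0 and most orange points near 0, while Itgam and Insig1 lie above 0 and Ccl7 below 0 under both.

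The losses that did not rest on scaling were few. The unscaled interval was below 0 for 6 genes of the panel (0.796%), all of them kept, and above 0 for 98 (13%). Beside Ccl7 these included Tyrobp, the DAP12 adaptor of myeloid receptors, with 61 and 32 counts, and Serpinb2, the plasminogen activator inhibitor PAI-2, with 29 and 11. The cytokine Il1b had 25 and 11 counts and the transcription factor Klf10 had 15 and 5. The log2 ratios of these named genes with equal totals ranged from -2.84 for Klf10 to -2.19 for Tyrobp. In MHCII+ cells Il1b had 319 counts in NS and 290 in DS5, and in monocytes 34 and 31. In Ly6C-low cells Serpinb2 had 87 counts in NS and 22 in DS5, Tyrobp had 67 and 30 and Il1b had 39 and 17. Klf10 had 9 and 6 there, and Ccl7 had 14 and 16. With equal totals the Ly6C-low interval was below 0 for Serpinb2 (-2.21 to -0.78) and Tyrobp (-1.32 to -0.002). It included 0 for Il1b (-1.60 to 0.17), Klf10 and Ccl7.

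Of the 38 lost genes, 25 had fewer, 3 had equal and 10 had more raw counts in DS5. H2-Aa, for example, had 16 and 21 counts and Vegfa had 12 and 19, because the DS5 limit was higher. The probe NEG_C, with 24 counts in DS5 and 9 in NS, raised that limit. Without this probe, an alternative chosen after seeing the data, 19 of the 38 lost genes were still lost. The others were shared, among them Ccl7, Ccl24, Cybb, Timd4, Sirpa, Tnfaip3, Socs3, Cxcr4 and H2-Aa. With the DS5 limit applied to both samples, an alternative chosen after seeing the data, 7 genes were lost (among them Ccl24, Ccl7, Cybb, Cytip, Il1b and Serpinb2) and 47 were gained, all 26 among them. Just inside the DS5 limit were Cxcl1, Hpgd and Il1rn with 23 counts, and just outside were 6 genes such as Ptafr and Rhog with 22. In NS the nearest values were 12, for 7 genes such as Ccr1, and 11, for 10 genes such as Psmb8.

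**Figure D4:**
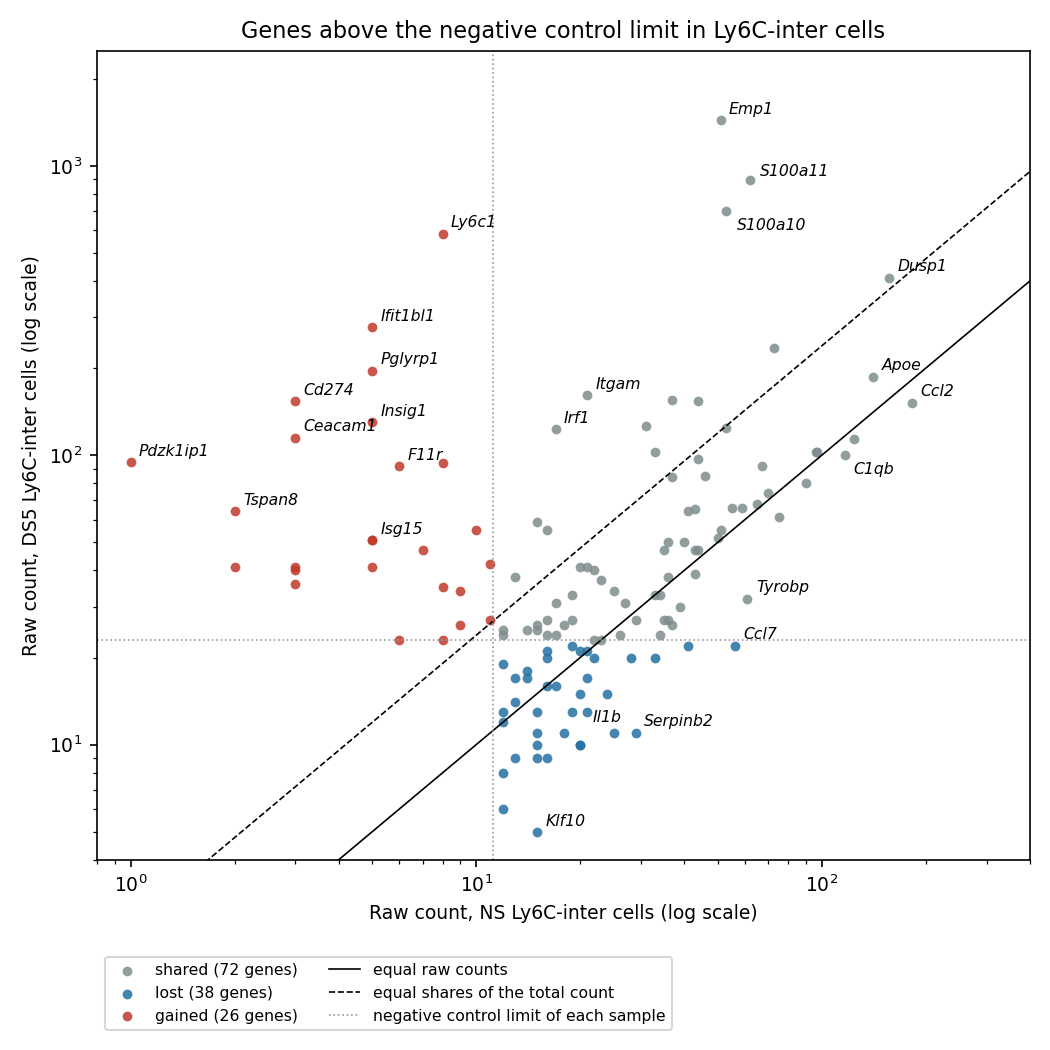
Raw counts of the 136 kept genes in NS (x axis) and DS5 (y axis) Ly6C-inter cells on log axes, with gained genes in red, lost genes in blue and shared genes in gray. The solid line marks equal counts and the dashed line equal shares of the total, and the 38 lost genes have 12 to 56 counts in NS while the 26 gained genes reach 583 in DS5.

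Matrix and protease genes were low in both samples and 4 of them were lost. Mmp9, a gelatinase, and Tgm2, a transglutaminase, both had 20 and 10 counts (-2.26, -3.51 to -1.09), and the urokinase Plau had 15 and 9 (-1.99, -3.37 to -0.71). The unscaled intervals of these 3 genes included 0. Cstb, an inhibitor of cathepsins, had 44 and 154 counts (0.55, 0.06 to 1.07). Of 19 measured genes of 35, 5 were kept, and the median was -0.48. Cybb, the catalytic subunit of the NADPH oxidase, had 33 and 20 counts (-1.98, -2.86 to -1.13), and its unscaled interval was -1.60 to 0.12.

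Among early response genes, Dusp1 was the one with the highest count in both samples. The MAP kinase phosphatase Dusp1 had 157 and 411 counts (0.13, -0.14 to 0.41), and Ier3 had 33 and 103 (0.39, -0.19 to 1), so their shares of the total did not differ beyond counting error. Atf3 had 97 and 103 counts, Fosb had 59 and 66 and Cebpb had 50 and 52, with log2 ratios of -1.17, -1.09 and -1.20. Of 20 measured genes of 30, 11 were kept, as 9 shared and 2 lost (Tnfaip3 and Socs3), with a median of -0.97 that was 0.28 without scaling. The MHC class I gene H2-D1 had 73 and 235 counts (0.43, 0.05 to 0.83), and H2-K1 had 53 and 124 (-0.03, -0.50 to 0.46).

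The markers of the sort and of other cell types were set beside these results. Fcgr1, the gene of CD64, had 9 and 3 counts, below the limit in both samples. The MHC class II genes were low, as the gate requires, with Cd74 at 55 and 66 and H2-Aa at 16 and 21 counts, while NS MHCII+ cells had 5212 of Cd74 and 3419 of H2-Aa, and 8 of 10 list members were measured with sums of 87 and 106. Ptprc, the gene of CD45 on which live leukocytes were gated, had 19 and 13 counts (-1.80, -2.94 to -0.71). The panel measured 5 of 25 epithelial markers, whose sum was 62 in NS and 1493 in DS5, with almost all of these counts from Emp1. The rise was not limited to Emp1, as 3 of the 5 had a log2 ratio of at least 1.5. Their median was 1.55, against -0.26 for all genes. After subtraction of the negative control mean it was 1.68, against -1.26. Unscaled intervals were above 0 for 4 of the 5, but scaled ones only for Emp1, and 3 of the 5 were below the limit in NS and DS5. Per the study's methods, the tissue taken for sorting was the conjunctival epithelium. Of the other 4, Cdh1, the gene of E-cadherin, had 2 and 16 counts, Areg had 2 and 11, Cldn1 had 1 and 7 and Il1rn had 6 and 23. In the other 6 samples the sum of the epithelial list was 11 to 260. Of 23 endothelial markers 6 were measured, with sums of 21 and 610, of which Ly6c1 gave 8 and 583, while Cdh5, Flt1, Tek, Sele and Selp had at most 7 counts. The fibroblast list (4 of 17 measured) summed to 15 and 26, the T, B and NK cell list (3 of 22) to 7 and 14, the neutrophil list (11 of 15) to 54 and 98, with Ly6g at 1 count in each, and the dendritic cell list (9 of 15) to 20 and 26. The sort had removed cells with NK, Ly6G, T or B cell markers. What part cells of other types had in the differences was not tested.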

How the data were processed

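The deposited values are raw counts of nCounter barcodes per probe, for 754 genes, 8 negative and 6 positive control probes, made by the authors from pooled sorted cells with quality control in nSolver. The table names no genome build. Whole numbers of at least 1 were found, with no 0. Each sample was brought to a total of 13334 counts over the genes, the mean of the 8 totals, values under 1 were set to 1, and log2 ratios of DS5 over NS were taken, with the study's threshold of 1.5. Intervals are exact binomial (Clopper-Pearson) 95% intervals for the DS5 part of both counts, moved by the scaling factors, and cover counting error only. Kept genes and classes rest on the limit from the negative control probes. No p-values were computed, and edgeR and DESeq2 served only for scaling factors. The code was tested on simulated data.

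The members and gene lists were chosen with earlier results of these data known, so no list is independent evidence. Named genes are the comparison markers (Emp1, Ly6c1, Ifit1bl1, Cd274), sort genes, the 10 highest counts of each sample, the 15 higher and 15 lower kept genes whose nearer interval end is farthest from 0, kept members of 18 lists and the genes beside the limits. Others, chosen after their values were seen, are Alcam, Znrf2, Il1r2, H2-K1, Vegfa, Cytip, Calr and Fcgr2b, and list members below the limit. Some items are not reported here. Of the gene names, 744 matched a RefSeq symbol (GRCm38.p6) and 9 a synonym. Software was R 4.3.3 with edgeR 4.0.16 and DESeq2 1.42.0, and Python 3.11.15 with scipy 1.17.1, pandas 2.3.3, numpy 2.4.6 and matplotlib 3.10.9.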

Additional observations from a re-analysis of the deposited data

Results flagged for a closer look

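Genes whose counting interval lay on one side of 0 in Ly6C-inter cells and on the other side in another population, with equal totals, are given here. The difference between populations was not tested, each value rests on 1 sample per condition, and no cause was weighed. S100a11 had a log2 ratio of DS5 over NS of 2.59 in Ly6C-inter and -0.73 in Ly6C-low cells, and H2-D1 had 0.43 and -0.68. Apoe had -0.85 in the former and 0.67 in the latter, and Fcgr2b, the inhibitory Fc receptor, had -1.40 and 1.60. Fosb had -1.09 in Ly6C-inter cells and 1.23 in monocytes. Calr, an endoplasmic reticulum chaperone, had 0.81 in Ly6C-inter cells and -0.32 in MHCII+ cells. In MHCII+ cells the log2 ratio was 0.63 for Alox5ap, 0.15 for Crip1, 0.48 for Cxcl2 and 0.25 for Il1b, against -1.36, -1.55, -1.18 and -2.44 in Ly6C-inter cells. Raw MHCII+ counts were lower in DS5 for Il1b (319 and 290) and Crip1 (1196 and 1018), as were those of Ly6C-inter cells. The opposite signs of these genes were therefore set by the scaling. Raw MHCII+ counts were higher in DS5 for Alox5ap (135 and 160) and Cxcl2 (300 and 321). Without scaling the Ly6C-inter value of Apoe was 0.41 (0.08 to 0.73), on the same side of 0 as the scaled Ly6C-low value. Raw Ly6C-low counts of Apoe were 54 in NS and 60 in DS5. The unscaled Ly6C-inter intervals of Fosb (-0.37 to 0.69), Cxcl2 (-0.41 to 0.57), Fcgr2b (-0.80 to 0.52), Alox5ap (-0.91 to 0.70) and Crip1 (-0.81 to 0.21) included 0.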

How the results depend on the processing

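No paired analysis was possible because each condition had 1 sample, and for the same reason no sample could be left out. Genes past the threshold numbered 55 higher and 105 lower with equal totals, 267 and 13 without scaling, 195 and 22 with positive controls, 110 and 56 with TMM and 173 and 25 with DESeq2 size factors. Leaving the 10 highest genes of either sample out of the totals gave 59 lower genes. Among kept genes alone 22 were higher and 30 lower. A threshold of 1 gave 110 and 247, and a threshold of 2 gave 35 and 52. The genes gained numbered 26, and 17 when a log2 ratio of at least 1.5 was also asked. With the alternatives chosen after seeing the data they numbered 44 without NEG_C and 47 with the higher raw limit for both samples. The genes lost numbered 38, and 22 when the ratio was also asked, 64 with the highest negative control probe as limit and 7 with the higher raw limit for both samples. Other settings stayed within 1.5 times these counts, which does not mean that the same genes were lost. Without NEG_C 32 genes were lost, of which 19 were among the 38. The depth limits most values, as 237 genes in NS and 67 in DS5 had a count of 1.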
